A study of Mus musculus with 8 samples.

Results

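The genes described here carry the odour signal in olfactory sensory neurons: Omp, Gng13, Gnal, Adcy3, Cnga2, Cnga4, Ano2, Stoml3, S100a5 and Rtp1. They were taken by name, as every noncontrol probe of the array whose gene name was one of the 10. All 10 genes were on the array, with 11 probes (2 for Gnal and 1 for each other gene) among 55681 noncontrol probes with 34797 gene names. For 10 probes of 9 genes the signal was well above background on all 8 arrays. The Rtp1 probe failed this filter on 1 array, and it is reported apart from the counts.

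RNA came from the olfactory bulb of male C57BL/6J mice in 4 groups, which share strain, sex, weaning at postnatal day 27 and age at necropsy (day 56). From gestational day 14 the dams, and then their pups, lived in a standard cage (groups C-C and C-DE) or in environmental enrichment, a larger cage with a running wheel, a small house, wood blocks and tubing (EE-C and EE-DE). After weaning the offspring kept their housing inside a chamber of clean air (C-C and EE-C) or of diesel exhaust (DE) at 90.0 µg/m3 (C-DE and EE-DE), for 8 h per day on 28 days, between postnatal days 28 and 55. The methods state that equal amounts of RNA per cage were pooled by group (7 mice for C-C and 7 for C-DE, 8 for EE-C, 9 for EE-DE), and each pool was put on 2 one-colour Agilent arrays.

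Because a group was 1 pool, differences among mice are not in its 2 arrays, and neither exposure nor rearing was tested. A level is a processed signal in log2 relative to its array's 75th percentile, and each array's level is given. A log2 fold change is one pool's mean over its 2 arrays minus that of the other pool, followed by its range over the 4 ways to pair single arrays of both pools. The threshold for a change was 1.5-fold, which is 0.585 in log2. C-DE/C-C is the exposure comparison in standard cages and EE-DE/EE-C that with enrichment, and EE-DE/C-DE compares rearing between the exposed pools. C-DE/C-C, EE-C/C-C and EE-DE/C-C share the C-C arrays, and their values stand side by side only. Levels of different probes are not comparable with each other, and the exon or untranslated region under each probe was not given in the sources used here.

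All 8 arrays lay on 1 slide. The standard-cage pools filled one column and the enriched pools the other, so rearing and slide column cannot be told apart. Clean-air pools lay in rows 1 and 2 and exposed pools in rows 3 and 4 of each column, so exposure and slide row cannot be told apart either. The 75th percentile was 644 to 716 intensity units, and 56.7% of noncontrol spots were well above background on the first EE-DE array against 68.0% to 70.6% on the others. The SD between the 2 arrays of a pool over 21709 passing probes was 0.11 (log2) for C-C and C-DE, 0.13 for EE-DE and 0.17 for EE-C. All 15 probes of 12 genes that mark bulb neurons, such as Tbx21 of mitral and tufted cells and Th of dopaminergic cells, were well above background on every array.

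An odorant that binds a receptor on the cilia of a sensory neuron activates the G protein Golf, made of the alpha subunit Gnal with a beta subunit and the gamma subunit Gng13. Golf turns on the adenylyl cyclase Adcy3, and cyclic AMP opens a cation channel built from Cnga2, Cnga4 and Cngb1. Calcium that enters through it opens the chloride channel Ano2, which adds to the depolarization. The cell bodies lie in the nasal epithelium and the axons end in the glomeruli of the bulb, so transcripts of these genes can reach a bulb sample in axons or with attached mucosa. Some are also made by brain cells, among them Gnal and Adcy3.

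The upstream sequences of the 3 channel genes with the widest spread over the arrays are shown. Their probes were lowest in C-DE, as were those of Omp, Gng13, Gnal and Stoml3, so this does not set them apart. Genes of sensory neurons are known to carry sites for the Olf/Ebf factors, whose core is a palindrome. RefSeq windows of 300 bases around a start (250 before and 50 after, build GRCm38.p6) were in the table for 7 of the 10 genes, with 11 windows. Omp, Gnal and Rtp1 were not in it. The full core was in 0 of the 11 windows and in 0.904% of all 32851 windows. After this was seen, the core short of 1 end base (TCCCNNGGG or CCCNNGGGA, each other's reverse complement, so that both strands are covered) was searched, and it was in 3 of the 11 windows, those of Ano2, Cnga2 and Gng13, against 6.56% of all windows. The 250 bases before the start follow, 5′ to 3′ on the plus strand, with the short core in capitals. It began 67 bases before the start in both Ano2 (1 of its 3 windows, chr6:125710938-125711187) and Cnga2 (chrX:71991599-71991848), and the Cnga4 window (chr7:105404318-105404567) had none.
Ano2: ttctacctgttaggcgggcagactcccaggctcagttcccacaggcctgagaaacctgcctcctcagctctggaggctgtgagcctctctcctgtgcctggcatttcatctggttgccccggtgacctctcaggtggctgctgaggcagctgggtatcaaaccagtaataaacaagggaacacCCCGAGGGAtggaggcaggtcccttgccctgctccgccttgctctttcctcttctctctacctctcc
Cnga2: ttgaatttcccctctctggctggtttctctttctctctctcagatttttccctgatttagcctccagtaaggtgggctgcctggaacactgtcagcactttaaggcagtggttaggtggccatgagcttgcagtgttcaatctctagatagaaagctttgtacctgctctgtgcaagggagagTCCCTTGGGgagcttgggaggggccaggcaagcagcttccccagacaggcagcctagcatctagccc
Cnga4: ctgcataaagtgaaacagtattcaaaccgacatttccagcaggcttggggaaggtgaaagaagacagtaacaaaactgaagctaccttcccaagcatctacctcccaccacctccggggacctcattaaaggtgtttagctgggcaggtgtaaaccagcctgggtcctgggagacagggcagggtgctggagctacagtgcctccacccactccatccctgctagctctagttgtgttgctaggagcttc

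Ano2 and Cnga4 were the only members past 1.5-fold in any of the 5 comparisons of pools, apart from Rtp1. Both fell in C-DE/C-C, by 0.90 and 0.95 on the log2 scale, and with enrichment (EE-DE/EE-C) both rose, by 0.72 each. The call with enrichment was lost for both without the second EE-C array (0.29 for Ano2 and 0.28 for Cnga4) and without the second EE-DE array (0.50 and 0.47). With the normexp background correction Ano2 fell short of 1.5-fold in both exposure comparisons (−0.47 in standard cages and 0.54 with enrichment), and Cnga4 did not. Between the exposed pools they were 2.33-fold and 2.40-fold higher with enrichment. Cnga2 fell short of 1.5-fold, and the G protein subunits, the cyclase and Omp stayed within 0.20 (log2) of 0 in both exposure comparisons.

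**Figure D1:**
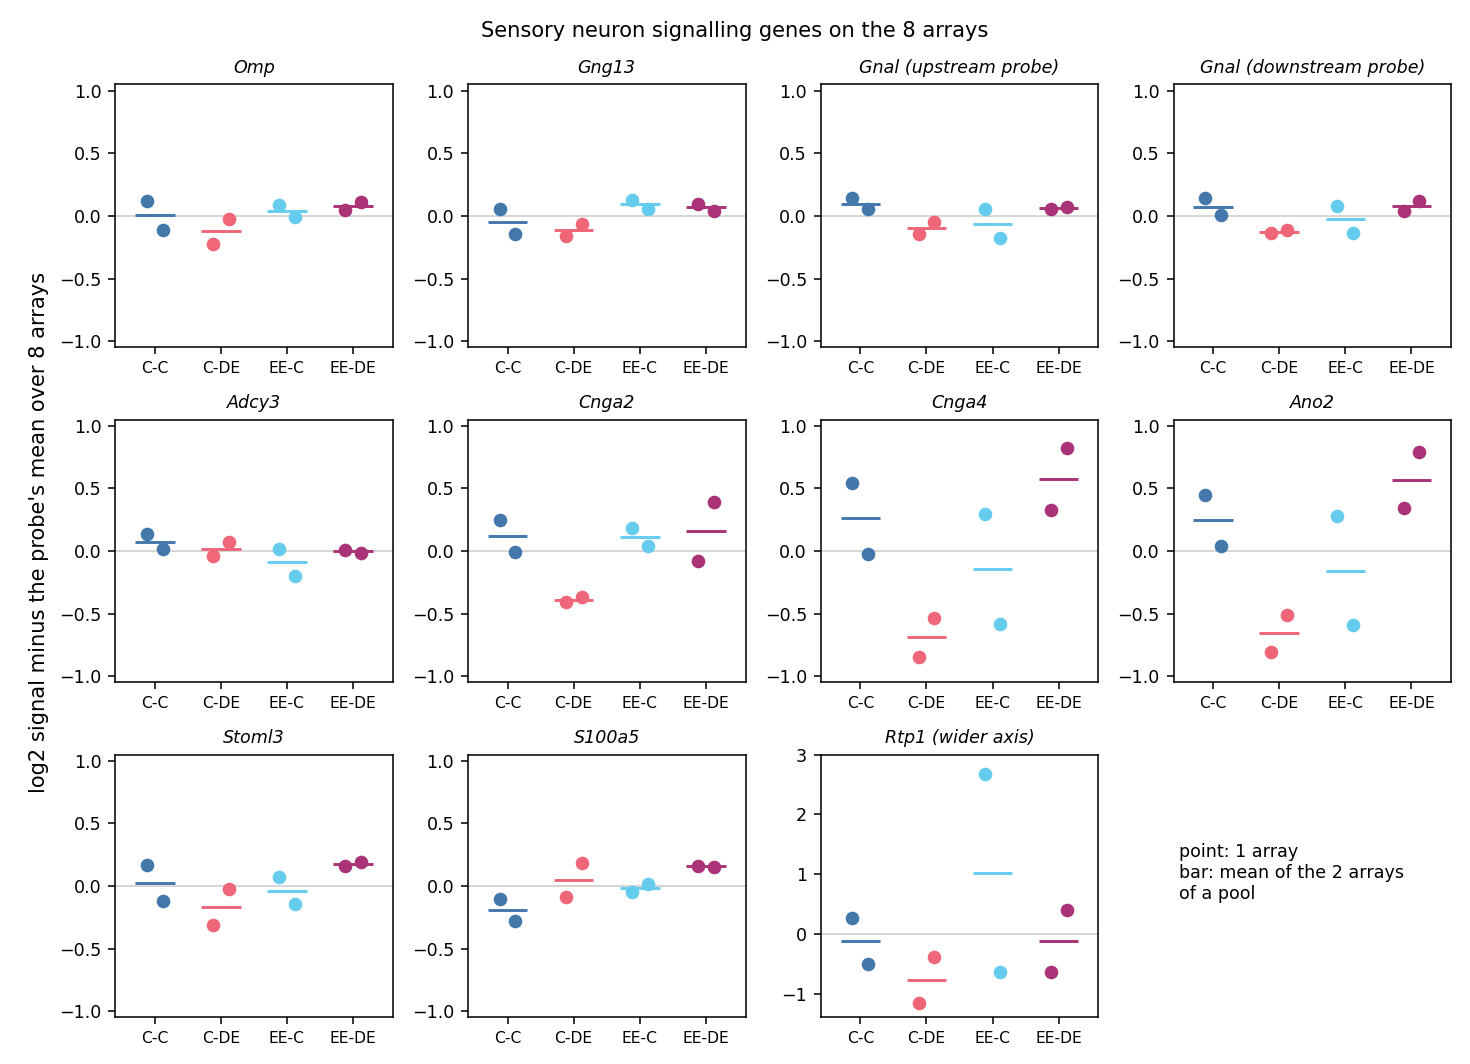
Levels of the 11 member probes on the 8 arrays, as log2 signal minus the probe's mean over the arrays (vertical axis), by pool (horizontal axis); a point is 1 array and a bar the mean of the 2 arrays of a pool. Cnga4 and Ano2 spread over 1.67 and 1.59 and are lowest in C-DE, while both Gnal probes, Gng13, Adcy3 and Omp spread over less than 0.35, and the axis for Rtp1 is wider.

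Cnga4 is the channel subunit that tunes how quickly the channel is closed by calcium. Its probe lies at chr7:112557135-112557194 (mm9, the build of the array's annotation). Its level was −1.58 and −2.15 on the C-C arrays, −2.97 and −2.66 on C-DE, −1.83 and −2.71 on EE-C and −1.80 and −1.30 on EE-DE. Both C-DE arrays lay below both C-C arrays, and both EE-DE arrays lay above both EE-C arrays, the nearest pair by 0.03. The second EE-C array lay between the C-DE arrays, so EE-C overlapped both C-DE and C-C, its neighbours in the order of the pools, and C-C overlapped EE-DE. The log2 fold change was −0.95 (−1.39 to −0.51) in C-DE/C-C, 0.72 (0.03 to 1.41) with enrichment (EE-DE/EE-C) and 1.26 (0.86 to 1.67) between exposed pools (EE-DE/C-DE). It was −0.40 (−1.13 to 0.32) in EE-C/C-C and 0.31 (−0.22 to 0.85) in EE-DE/C-C.

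Ano2, the calcium-gated chloride channel, is read by a probe at chr6:125990063-125990122 (mm9). Its level was −2.41 and −2.82 on C-C, −3.66 and −3.37 on C-DE, −2.58 and −3.45 on EE-C and −2.52 and −2.07 on EE-DE. As for Cnga4, C-DE lay below C-C and EE-DE above EE-C on both arrays, and the second EE-C array lay between the C-DE arrays. The log2 fold change was −0.90 (−1.25 to −0.55) in C-DE/C-C, 0.72 (0.06 to 1.38) with enrichment (EE-DE/EE-C) and 1.22 (0.85 to 1.59) between exposed pools (EE-DE/C-DE). The signal of this probe was low, between 50.8 and 160 intensity units, against 82.0 to 274 for Cnga4.

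The 2 arrays of the EE-C pool were 0.88 apart for Cnga4 and 0.87 apart for Ano2, more than the change of 0.72 with enrichment. They were 0.57 and 0.41 apart on C-C, 0.31 and 0.29 on C-DE and 0.50 and 0.44 on EE-DE, less than the changes in C-DE/C-C and between exposed pools. Within every pool the array in an end row of the slide (row 1 or 4) was higher than the one in a middle row (row 2 or 3) for both genes. Of the 10 passing member probes the end row was higher for 10 of the C-C pool, 10 of the C-DE pool, 9 of the EE-C pool and 7 of the EE-DE pool, against 49.8%, 49.0%, 54.5% and 48.3% of all passing probes. In all 4 pools it was higher for 7 of the 10, against 8.40% of all passing probes. Spots that surround the member spots on the array differed between the arrays of a pool by a median of −0.04 to 0.09. What lies behind the difference between rows was not tested.

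Every pool had 1 array in an end row and 1 in a middle row, so pools could be set against each other within each kind of row. The exposed pools then share a row with each other, but an exposure comparison still sets row 4 against row 1 or row 3 against row 2. This split was chosen after the data were seen. With the end rows, Cnga4 was −1.08 in C-DE/C-C, 0.52 with enrichment (EE-DE/EE-C) and 1.36 between exposed pools (EE-DE/C-DE), and with the middle rows −0.82, 0.91 and 1.17. Ano2 was −0.96, 0.51 and 1.30 with the end rows and −0.85, 0.94 and 1.15 with the middle rows. These values are 2 of the 4 pairings already within the ranges above, and not further data. Between exposed pools all 4 pairings were past 1.5-fold for both genes, so the call could not be lost in either kind of row. For exposure in standard cages the call of both genes held in both kinds of row. For exposure with enrichment it held in the middle rows and was lost in the end rows.

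Cnga2, the principal subunit without which the channel does not form, has its probe at chrX:69254862-69254921 (mm9). Its level was −0.88 and −1.14 on C-C, −1.54 and −1.50 on C-DE, −0.95 and −1.09 on EE-C and −1.21 and −0.74 on EE-DE. The C-DE arrays were below all 6 other arrays, and the other 3 pools overlapped. The log2 fold change was −0.51 (−0.66 to −0.36) in C-DE/C-C, short of 1.5-fold. Between exposed pools it was 0.54 (0.29 to 0.80), also short of 1.5-fold. With enrichment (EE-DE/EE-C) it was 0.04 (−0.26 to 0.35). With the end rows alone it passed 1.5-fold in C-DE/C-C (−0.62) and between exposed pools (0.76), and with the middle rows it did not (−0.40 and 0.33).

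Cngb1, the remaining subunit, was not a member but completes the channel. It had 3 probes on chromosome 8, and they did not move alike. The probe at chr8:97762945-97763004 (mm9) had a level of −1.39 and −1.85 on C-C, −2.58 and −2.48 on C-DE, −1.80 and −2.46 on EE-C and −1.85 and −1.32 on EE-DE. It fell in C-DE/C-C by 0.91 on the log2 scale (−1.19 to −0.63, past 1.5-fold in all 4 pairings), was 0.54 (−0.06 to 1.14) in EE-DE/EE-C and rose in EE-DE/C-DE by 0.94 (0.63 to 1.26). The probe at chr8:97764887-97764946 was −0.13 in C-DE/C-C and −0.10 with enrichment, and the probe at chr8:97814493-97814552 was 0.17 and 0.18. The array assigns the first 2 of these to one RefSeq transcript of the gene and the last to another, and which of them sensory neurons make was not tested.

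**Figure D2:**
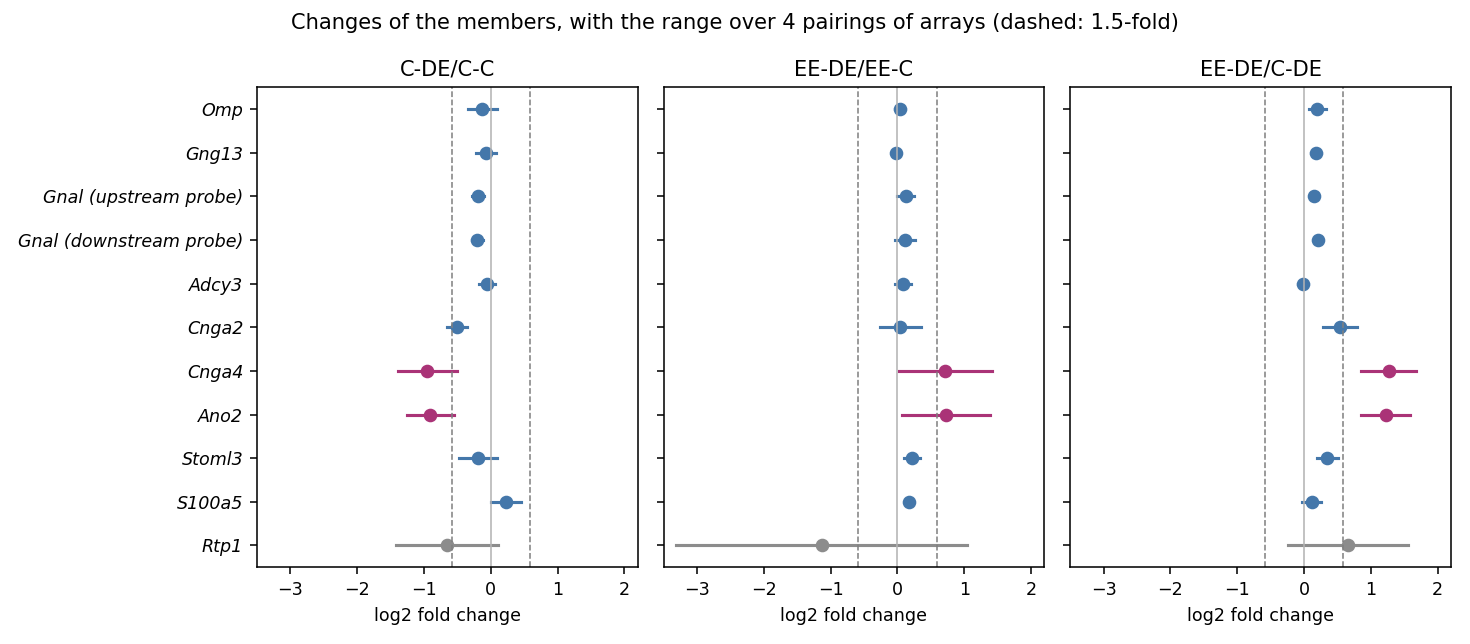
Log2 fold change of each member probe (horizontal axis) for exposure in standard cages (C-DE/C-C), for exposure with enrichment (EE-DE/EE-C) and between exposed pools (EE-DE/C-DE); a point is the difference of pool means, a line its range over the 4 pairings of arrays, and dashed lines mark 1.5-fold. Purple marks Cnga4 and Ano2, whose whole range lies past 1.5-fold in EE-DE/C-DE only, and grey marks Rtp1, which failed the filter.

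The G protein subunits and the cyclase did not reach 1.5-fold in any comparison. Gnal, the alpha subunit, is on chromosome 18. Its downstream probe had a level of 2.94 and 2.80 on C-C, 2.66 and 2.68 on C-DE, 2.88 and 2.66 on EE-C and 2.83 and 2.92 on EE-DE. Its upstream probe had 0.08 and −0.01 on C-C, −0.21 and −0.11 on C-DE, −0.01 and −0.24 on EE-C and −0.01 and 0.00 on EE-DE. For both probes the C-DE arrays lay below the C-C arrays and below the EE-DE arrays, and EE-C overlapped C-DE. The log2 fold change in C-DE/C-C was −0.20 (−0.28 to −0.12) for the downstream and −0.19 (−0.28 to −0.10) for the upstream probe. In EE-DE/C-DE it was 0.21 (0.15 to 0.26) and 0.16 (0.10 to 0.21).

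Gng13, the gamma subunit, had a level of 5.69 and 5.49 on C-C, 5.47 and 5.57 on C-DE, 5.76 and 5.69 on EE-C and 5.73 and 5.67 on EE-DE (probe at chr17:25855911-25855970, mm9). The enriched pools overlapped each other, C-C overlapped C-DE and EE-DE, and C-DE lay below both enriched pools. EE-DE/C-DE was 0.18 (0.11 to 0.26), whereas C-DE/C-C was −0.07 (−0.22 to 0.08). Adcy3 (probe at chr12:4211535-4211594, mm9) had a level of −1.44 and −1.56 on C-C, −1.62 and −1.50 on C-DE, −1.56 and −1.78 on EE-C and −1.57 and −1.60 on EE-DE. Neighbouring pools overlapped throughout, with −0.06 (−0.17 to 0.06) in C-DE/C-C and 0.09 (−0.04 to 0.21) with enrichment.

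Omp, the olfactory marker protein of mature sensory neurons, had a level of 6.15 and 5.92 on C-C, 5.81 and 6.01 on C-DE, 6.12 and 6.02 on EE-C and 6.08 and 6.14 on EE-DE. Its probe lies at chr7:105291870-105291929 (mm9, minus strand). Neighbours in the order from C-DE over C-C to EE-C, with EE-DE the highest, overlapped, while C-DE lay below both enriched pools (EE-DE/C-DE 0.20, 0.07 to 0.33). C-DE/C-C was −0.13 (−0.34 to 0.09) and EE-DE/EE-C was 0.04 (−0.04 to 0.12). No spot of the arrays was saturated, and the Omp signal lay between 36030 and 48380 intensity units.

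Stoml3, a stomatin-like membrane protein of the cilia (probe at chr3:53311510-53311569, mm9), had a level of 1.04 and 0.75 on C-C, 0.56 and 0.84 on C-DE, 0.94 and 0.72 on EE-C and 1.03 and 1.06 on EE-DE. The EE-DE arrays were above both EE-C and both C-DE arrays, and C-DE overlapped C-C. The log2 fold change was −0.20 (−0.48 to 0.09) in C-DE/C-C, 0.22 (0.09 to 0.34) with enrichment (EE-DE/EE-C) and 0.35 (0.19 to 0.51) between exposed pools (EE-DE/C-DE).

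S100a5, a calcium-binding protein whose transcript in sensory neurons depends on odour activity, was the only passing member with a positive value in both exposure comparisons and all 4 pairings of each. Its level was 5.90 and 5.73 on C-C, 5.91 and 6.18 on C-DE, 5.96 and 6.02 on EE-C and 6.16 and 6.16 on EE-DE (probe at chr3:90415643-90415702, mm9). The C-C arrays were the lowest of the 8, the nearest C-DE array by 0.01, and C-DE overlapped both EE-C and EE-DE. The log2 fold change was 0.23 (0.01 to 0.46) in C-DE/C-C, 0.17 (0.14 to 0.20) with enrichment (EE-DE/EE-C) and 0.35 (0.26 to 0.43) in EE-DE/C-C, all short of 1.5-fold. In C-DE/C-C all 4 pairings were above 0 for 18.5% of all passing probes, and with enrichment for 14.6%.

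Rtp1, a chaperone that brings odorant receptors to the cell surface, gave a weak signal (probe at chr16:23433062-23433121, mm9). Its level was −3.70 and −4.46 on C-C, −5.11 and −4.35 on C-DE, −1.28 and −4.60 on EE-C and −4.59 and −3.56 on EE-DE. The first EE-C array read 270 intensity units against 28.6 on its duplicate and 18.6 to 57.2 on the rest, with no outlier flag, and on the first EE-DE array the probe was not well above background. The value of 1.14 (−0.90 to 3.18) in EE-C/C-C rests on that EE-C array, since without it the value was −0.52. EE-DE/EE-C likewise went from −1.13 (−3.31 to 1.04) to 0.52 without it. C-DE/C-C was −0.65 (−1.42 to 0.11) and EE-DE/C-DE 0.66 (−0.24 to 1.56), and pairings of both signs were found in every comparison.

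Over the 10 passing probes the median log2 fold change in C-DE/C-C was −0.19 (−0.31 to −0.02 over the pairings), against −0.01 over all 21709 passing probes. In it 2 of 10 were past 1.5-fold lower, against 0.433% of all probes, and 0 were higher, against 0.143%. Values below 0 in all 4 pairings were found for 5 of 10 (Ano2, Cnga4, Cnga2 and both Gnal probes) against 22.4% of all. With enrichment (EE-DE/EE-C) it was 0.11 (−0.00 to 0.25) against −0.01, with 2 of 10 past 1.5-fold higher against 0.608% of all, and 5 of 10 above 0 in all pairings against 14.6%. In neither comparison did a member pass 1.5-fold in all 4 pairings, as 0.0967% of all probes did downwards in C-DE/C-C and 0.0138% upwards with enrichment.

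In EE-DE/C-DE the median was 0.20 (0.16 to 0.29) against 0.00, and 2 of 10 were past 1.5-fold higher against 0.557% of all. Both passed in all 4 pairings, as did 0.175% of all probes, and 8 of 10 were above 0 in all pairings against 21.2%. In EE-C/C-C and EE-DE/C-C no passing member reached 1.5-fold, where 0.825% and 0.815% of all probes did either way. Their medians were −0.08 (−0.30 to 0.20) and 0.09 (−0.10 to 0.27).

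The exposure effect with enrichment minus that in standard cages was 1.67 for Cnga4 (0.54 to 2.80 over all pairings), 1.62 for Ano2 (0.62 to 2.63), 0.55 for Cnga2 (0.10 to 1.01) and 0.41 for Stoml3 (0.00 to 0.82). It was 0.31 for each Gnal probe and between −0.06 and 0.16 for the other passing members. A difference past 1.5-fold higher was found for 2 of 10 members and 1.15% of all probes. Values below 0 in standard cages and above 0 with enrichment in all pairings were found for 3 of 10 (Ano2, Cnga4 and the upstream Gnal probe) against 2.16% of all.

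**Figure D3:**
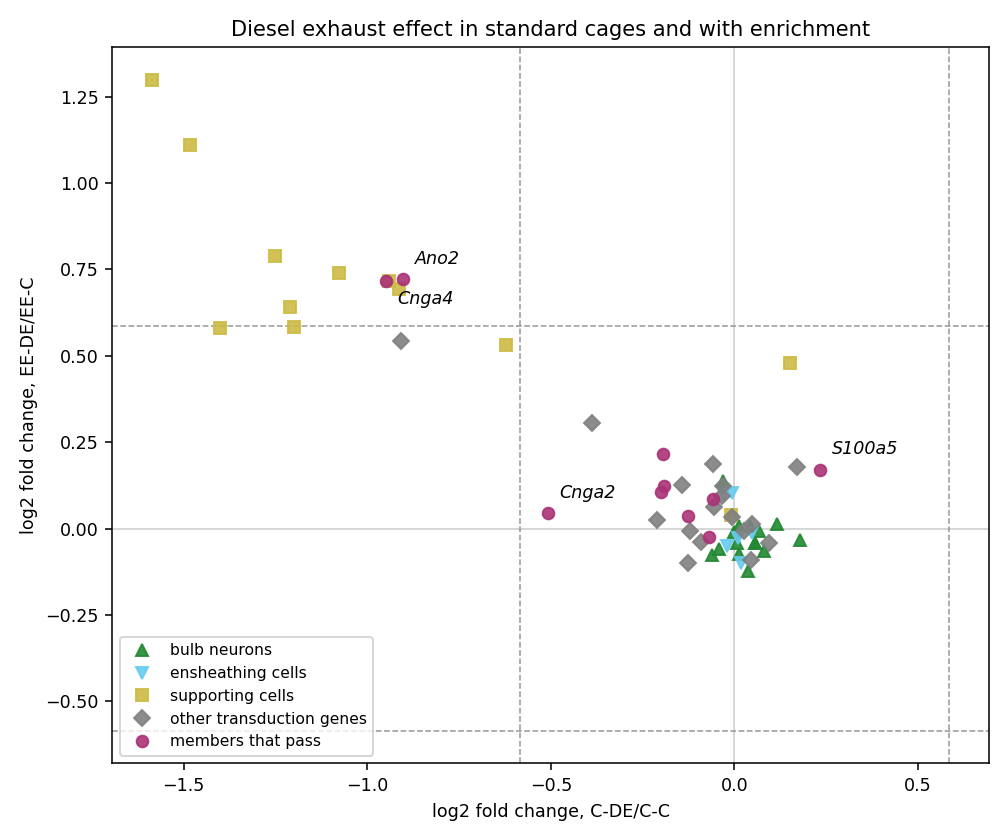
Log2 fold change in C-DE/C-C (horizontal axis) against EE-DE/EE-C (vertical axis) for the passing member probes and 4 lists of genes, 1 point a probe; dashed lines mark 1.5-fold. Ano2 and Cnga4 lie at the upper left among the supporting cell probes, at −0.90 and −0.95 against 0.72, while bulb neuron, ensheathing cell and most transduction probes lie near 0.

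Of 17 probes of 10 further transduction genes, among them Cngb1, the phosphodiesterase Pde1c and the exchanger Slc24a4, 1 was past 1.5-fold lower in C-DE/C-C, the Cngb1 probe above, and 0 were higher. Their median was −0.06 in C-DE/C-C, 0.03 with enrichment (EE-DE/EE-C) and 0.04 between exposed pools (EE-DE/C-DE). Rtp2, the partner of Rtp1, was −0.39 (−0.58 to −0.20) in C-DE/C-C and 0.31 (0.20 to 0.41) with enrichment. Of 12 probes of 10 other genes of sensory neurons, 2 fell past 1.5-fold in C-DE/C-C and with enrichment 2 rose past it, and their median was −0.17 and 0.11. Those that fell were Ebf2, a transcription factor of the Ebf family (−0.71, −1.12 to −0.30), and Kirrel2, an adhesion molecule of their axons (−0.62, −0.91 to −0.32), and in EE-DE/EE-C they were 0.59 (0.17 to 1.00) and 0.73 (0.30 to 1.16). Between exposed pools the list median was 0.26 (0.19 to 0.31) and 3 of the 12 were higher past 1.5-fold, with Ebf2 (1.00, 0.69 to 1.31) past it in all 4 pairings. None of the 5 probes of 4 genes of immature sensory neurons, which bulb neuroblasts share, was called in either.

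Markers of supporting cells, which surround the sensory neurons in the nasal mucosa and do not enter the bulb, had their lowest list mean in C-DE and their highest in EE-DE, as did Ano2 and Cnga4. Of 12 passing probes of 9 genes, 10 were lower past 1.5-fold in C-DE/C-C (0.433% of all probes), with a list median of −1.14 (−1.72 to −0.50). With enrichment (EE-DE/EE-C) 7 were higher (0.608% of all), with a list median of 0.67 (−0.15 to 1.62). In EE-DE/C-DE 10 were higher (0.557% of all), with a median of 1.56 (0.94 to 2.13). The list was chosen with earlier results of these data known. The paper lists Aqp3, Cyp2f2, Krt18 and Ugt2a1 among the genes changed on these arrays, so these counts are partly fixed by the choice. The 5 genes with a probe lower past 1.5-fold however the arrays of C-DE and C-C were paired were Cyp2g1, Krt8, Krt18, Aqp3 and Sec14l3. For Sec14l3 this held for one probe (−1.48, −2.22 to −0.75) and not for the other (−0.62, −0.91 to −0.34). Cyp2g1, a cytochrome of the olfactory mucosa, had a level of 1.44 and 0.44 on C-C, −0.86 and −0.44 on C-DE, 1.27 and −0.79 on EE-C and 1.14 and 1.94 on EE-DE. The summed scaled signal of the 12 probes was 33.1 to 42.8 on C-C, 31.1 to 39.0 on C-DE, 24.8 to 31.8 on EE-C and 35.8 to 46.2 on EE-DE. The 2 probes of Ermn, which oligodendrocytes also make, were not called, and without them the sum was 7.65 to 13.2 on C-C, 4.04 to 5.08 on C-DE, 4.78 to 12.5 on EE-C and 10.8 to 17.6 on EE-DE. The mean of the 12 probes, each centred on its mean over the arrays, ran from −0.87 on the first C-DE array to 0.89 on the second EE-DE array, as did Cnga4 and Ano2, and it was higher in the end row of every pool. No defining marker of the list was at 0, and Cyp2a5 was not on the array by that name.

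**Figure D4:**
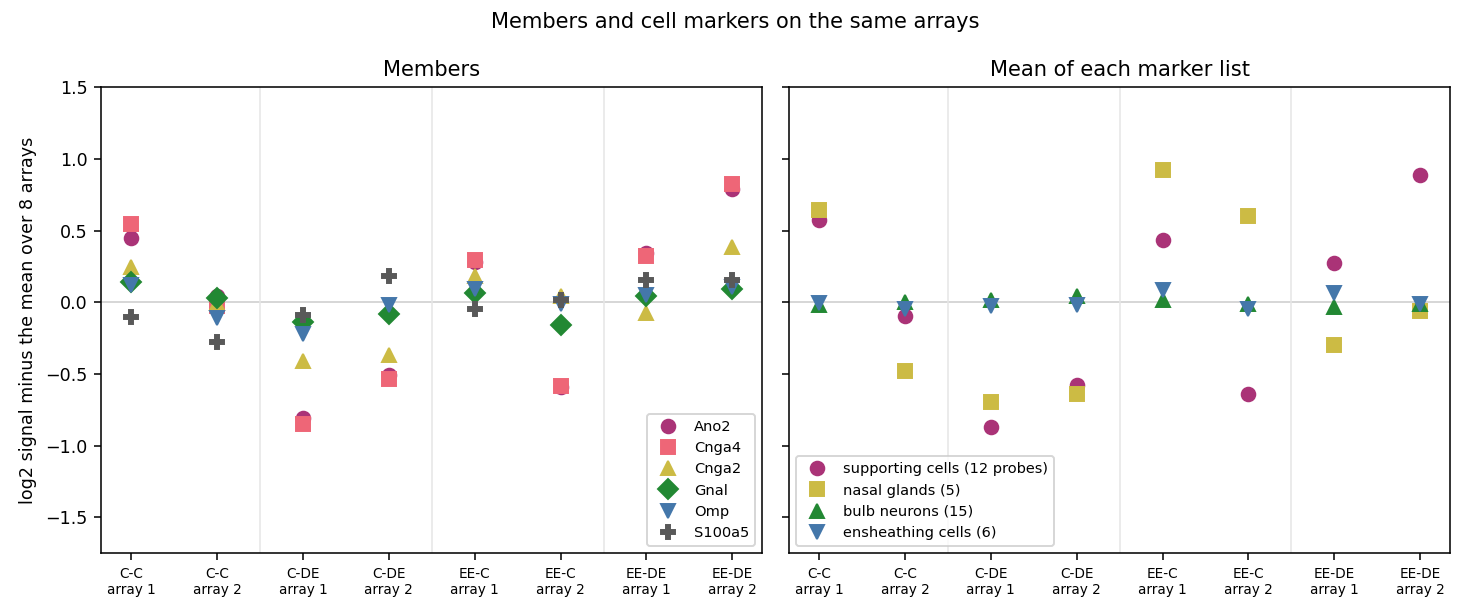
Left, 6 members on each of the 8 arrays, and right, the mean of 4 marker lists on the same arrays, all as log2 signal minus the mean over the arrays (vertical axis; both Gnal probes averaged). Ano2, Cnga4 and the supporting cell mean are lowest on the first C-DE array and highest on the second EE-DE array, while the bulb neuron and ensheathing cell means stay between −0.05 and 0.09.

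The part of attached mucosa in the member values was not tested, and fewer cells of a type and less RNA per cell cannot be told apart in these pools. The 5 probes of nasal gland markers had a list median of −0.82 (−1.96 to 0.09) in C-DE/C-C, −0.12 (−0.79 to 0.54) with enrichment and 1.09 (0.57 to 1.54) between exposed pools. Past 1.5-fold, 4 were lower and 0 higher in the first of these, 2 lower and 0 higher in the second, and 1 lower and 3 higher in the last. Their mean was 0.92 on the first and 0.60 on the second EE-C array, against 0.65 on the first C-C array and below 0 on the rest. The second EE-C array read Obp1a, an odorant-binding protein, at a level of 1.00 against −2.27 to −1.97 on the other arrays, and the median of the 5 on it was −0.12. Bpifa6, a secreted protein of the BPI fold family, was the only gland gene past 1.5-fold in all 4 pairings of an exposure comparison. Its level was −1.44 and −0.20 on C-C, −0.63 and −3.31 on C-DE, −0.48 and 0.08 on EE-C and −3.52 and −2.78 on EE-DE. Both EE-DE arrays lay below both EE-C arrays (−2.95, −3.60 to −2.30), the direction opposite to that of Ano2 and Cnga4. The 15 probes of bulb neurons had a list median of 0.04 in standard cages (C-DE/C-C), −0.04 with enrichment (EE-DE/EE-C) and −0.03 between exposed pools (EE-DE/C-DE). The 6 probes of olfactory ensheathing cells, the glia around the sensory axons, had 0.00, −0.02 and 0.03. No probe of these last lists was called in any comparison.

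The genes whose pattern over the 8 arrays of 4 pools was most like the mean of the members (Pearson's r over arrays, among 482 probes with a range over the pools of at least 1.5-fold) were Ebf2 (0.990), Cbr2 (0.988), Fetub (0.987), Sec14l3 (0.983), Krt18 (0.983), Cyp2f2 (0.980), Gm949 (0.979), Gadl1 (0.978), Cyp2a4 (0.976) and Umodl1 (0.975). Cbr2, Sec14l3, Krt18 and Cyp2f2 are of the supporting cell list. This mean follows Ano2 and Cnga4 more than the other members, since on the first C-DE array they stood at −0.80 and −0.85 against −0.34 for the mean, and on the second EE-DE array at 0.79 and 0.82 against 0.29. The 8 points are not independent, since the arrays of a pool share their RNA and all share a slide. The size differed as well, with a root mean square difference from the member mean of 0.23 for Ebf2 and 0.43 to 0.70 for those 4 genes.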

How the data were processed

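The authors deposited the intensity values of the scanner software (Agilent Feature Extraction 10.7.3.1, per the submitters' processing notes), with local background subtracted and not scaled between arrays, per the file headers. They also deposited a table of log2 values. For 99.4% of 21709 probes it lay within 0.02 of the log2 signal minus the 75th percentile, centred on the probe's median. Its column medians were −0.0113 to 0.0183, and it served as an alternative.

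Here log2 processed signal minus the 75th percentile of noncontrol spots was used. Spots were kept with a GenBank or RefSeq accession, well above background on all 8 arrays and without outlier flags, and spots of a probe were averaged. The 8 arrays are duplicates of 4 pools, so no test was made and the number of arrays limits the precision. Every member was named. From the lists, genes with a probe past 1.5-fold in all pairings of an exposure comparison and up to 3 examples were named, as were the 10 genes most like the members. Rtp2 and Obp1a were chosen after their values were seen. The members and lists were chosen with earlier results of these data known. The alternatives were normexp (offset 50), quantile and median scaling, the log2 table, linear means, other filters, the brightest probe, leaving out each array, and other thresholds. The split by slide row was added later. Tools were limma 3.58.1 in R 4.3.3, and numpy 2.4.6, pandas 2.3.3 and matplotlib 3.10.9 in Python 3.11.15. In a simulated C-DE/C-C comparison, 200 of 21709 probes were given a log2 change of 1, and 200 were recovered with 0 false calls. That change was larger than the threshold of 0.585, so the run shows little about values near it. Differences among mice are not in the arrays of a pool. The run therefore checks the calculation only and is no evidence for the calls of Ano2 and Cnga4.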

Additional observations from a re-analysis of the deposited data

Results flagged for a closer look

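For 3 member probes the exposure effect ran one way in standard cages and the other way with enrichment in all pairings of arrays, and the difference was not tested, since a group was 1 pool. It was 1.67 (log2, EE-DE/EE-C minus C-DE/C-C) for Cnga4, 1.62 for Ano2 and 0.31 for the upstream Gnal probe. In EE-DE/EE-C the nearest pair of arrays was 0.03 apart for Cnga4, 0.06 apart for Ano2 and 0.00051 apart for this Gnal probe.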

How the results depend on the processing

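No paired analysis was possible because the results come from no test, and array numbers do not match slide rows between pools. The split by kind of slide row gives differences of single arrays only. The number of members past 1.5-fold was 2 for exposure in standard cages (C-DE/C-C), for exposure with enrichment (EE-DE/EE-C) and between exposed pools, and 0 in the other comparisons. It was 3 with the looser filter and with no filter on dim spots in these 3 comparisons. Between exposed pools it was 3 in the end slide rows and 2 to 3 with each array left out. In C-DE/C-C it was 1 with normexp, where Ano2 was −0.47, 0 at 2-fold, 0 in all 4 pairings, 3 in the end slide rows and 2 to 3 with each array left out. In EE-DE/EE-C it was 1 with normexp, 0 at 2-fold, 0 in all 4 pairings, 0 in the end slide rows and 0 to 2 with each array left out, 0 without the second EE-C or the second EE-DE array. In EE-C/C-C it was 1 with the looser filter, 1 with no filter on dim spots, 1 in the middle slide rows and 0 to 2 with each array left out, 2 without the second C-C or the first EE-C array. For EE-DE/C-C it was 0 to 1, with 1 without the first C-C array. With each array left out, the median over the members was 0.17 to 0.27 in EE-DE/C-DE (0.20 with all arrays), −0.26 to −0.09 in C-DE/C-C (−0.19) and 0.00 to 0.20 in EE-DE/EE-C (0.11), lowest without the second EE-C array. Its sign turned in EE-C/C-C (−0.19 to 0.04, positive without the first C-C or the second EE-C array) and in EE-DE/C-C (−0.02 to 0.20, negative without the second C-C array). Rtp1 was −2.79 to 0.52 in EE-DE/EE-C (−1.13 with all arrays) and −0.52 to 2.80 in EE-C/C-C (1.14) with each array left out, its sign turning without the first EE-C array, and 0.0070 and −0.14 in the middle rows. In EE-DE/C-DE, Cnga4 (0.96 to 1.51) and Ano2 (0.79 to 1.44) kept direction and 1.5-fold in 15 of 15 alternatives. In C-DE/C-C Cnga4 (−1.23 to −0.63) did so in 15 and Ano2 (−1.11 to −0.47) in 14, and in EE-DE/EE-C in 12 (0.28 to 1.16) and 11 (0.29 to 1.16). Each gene had 1 passing probe and no outlier flags, so the other filters and the brightest probe left its values unchanged. In EE-DE/C-DE all 4 pairings were past 1.5-fold, so leaving out an array or splitting by row could not undo the call. Thus most of the 15 alternatives could not change that call. The cause of the shifts between alternatives was not tested. The signal was low for Ano2 (50.8 to 160 intensity units) and for Rtp1 (18.6 to 57.2, but 270 on the first EE-C array).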
